A study of Mus musculus with 9 samples.

Results

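The Hox genes encode homeodomain transcription factors that give cells their position along the body and limb axes. All 39 genes whose symbol was Hoxa, Hoxb, Hoxc or Hoxd followed by a number were taken, of 30579 genes in the deposited table. They lie in 4 clusters, with 11 Hoxa, 10 Hoxb, 9 Hoxc and 9 Hoxd genes. RNA was sequenced from mesenchymal stromal cells of mouse bone marrow, which support blood formation and give rise to bone and fat, sorted by flow cytometry from the long bones. The 9 libraries formed 3 groups of 3. The first group was labelled aged Thbs1 knockout (18 months old), the second aged control (18 months old) and the third young control (3 months old). All mice were injected before death with an antibody that marks endothelial cells through VE-cadherin. The sources used here do not give the kind of Thbs1 allele, the strain, the genotype of the controls beyond the word control, or the sorting gates. They also do not say whether a group's libraries are separate mice, and a p-value then reflects the spread among libraries, which may be technical. Values are FPKM, fragments per kilobase of transcript scaled to the mapped fragments of the library.

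Within each Hox cluster the genes sit in the order in which they act from head to tail, and a gene shares its number, the paralog group, with its counterparts in the other clusters. Low-numbered genes act in hindbrain and neck, high-numbered genes in the lumbar, sacral and tail regions and, for the Hoxa and Hoxd clusters, in successive segments of the developing limb. Adult connective tissue cells keep a Hox pattern that records where in the body they arose.

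Thbs1, the gene named by the knockout label, was at 24.28, 44.55 and 37.05 FPKM in libraries labelled aged Thbs1 knockout, at 35.56, 41.89 and 36.85 FPKM in aged controls and at 74.98, 73.11 and 58.03 FPKM in young controls. The first 2 groups overlapped, with a log2 fold change of -0.15 (SE 0.26, limma adjusted p = 0.801), so a lower Thbs1 RNA level was not shown for the labelled-knockout libraries. Over 23 alternatives of scaling, filter and libraries the estimate ran from -0.72 to 0.09, and the lowest limma adjusted p was 0.0962. Their replicate 2 stood apart, with correlations of 0.738 to 0.811 to the other 8 libraries over all genes and 0.772 to 0.842 over the 39 Hox genes, and counts of called Hox genes are also given without it. Depth, estimated from the steps between low FPKM values, was 17.74 to 27.64 M reads (M, mega). At that depth 3 reads on a transcript of 2 kb came to 0.0543 to 0.0846 FPKM, a floor that covers counting error only. Cxcl12 and Lepr, defining genes of marrow stromal cells, averaged 4697 and 459 FPKM over the 9 libraries. Summed levels of 20 stromal markers were 7058 to 9458 FPKM in the labelled-knockout libraries, 5122 to 6675 in aged controls and 8949 to 10120 in young controls. Those of 10 endothelial markers were 13.7 to 21.1, 11.3 to 22.8 and 14.4 to 19.6 FPKM in the same order of groups.

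Hox levels differed between close neighbours on the chromosome, and the regions just upstream of 3 genes are shown because they belong to the most abundant member and to an expressed and a near-silent neighbour of the Hoxd cluster. Each is the 250 bases before a RefSeq start (GRCm38.p6), written 5′ to 3′ on the gene's strand, with the letters CCAAT or ATTGG, its reverse complement, in capitals. That motif was searched on both strands.
Hoxa10, chr6:52234940-52235189, minus strand: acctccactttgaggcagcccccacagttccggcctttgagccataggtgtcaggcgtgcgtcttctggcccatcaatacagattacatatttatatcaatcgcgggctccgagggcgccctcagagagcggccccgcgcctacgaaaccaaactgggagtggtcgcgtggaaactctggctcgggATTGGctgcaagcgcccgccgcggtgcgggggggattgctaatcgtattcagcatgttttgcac
Hoxd8, chr2:74704365-74704614, plus strand: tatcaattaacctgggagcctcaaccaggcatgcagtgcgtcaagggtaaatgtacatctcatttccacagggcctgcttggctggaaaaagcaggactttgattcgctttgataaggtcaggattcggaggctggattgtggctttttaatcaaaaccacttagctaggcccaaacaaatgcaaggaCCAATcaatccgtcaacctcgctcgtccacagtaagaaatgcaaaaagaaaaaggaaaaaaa
Hoxd10, chr2:74691641-74691890, plus strand: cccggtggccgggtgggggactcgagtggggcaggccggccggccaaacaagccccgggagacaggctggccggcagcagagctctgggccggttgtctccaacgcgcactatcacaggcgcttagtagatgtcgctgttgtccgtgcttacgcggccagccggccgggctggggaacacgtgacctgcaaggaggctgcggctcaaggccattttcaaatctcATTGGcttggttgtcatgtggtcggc
The Hoxa10 stretch precedes the inner of its annotated starts, and the window before the outer one (chr6:52240855-52241104) held 7 CG pairs and no CCAAT match. Hoxa10 averaged 55.0 FPKM over the 9 libraries, Hoxd8 4.14 FPKM and Hoxd10 0.0467 FPKM. The Hoxa10 and Hoxd10 stretches held 20 CG pairs each and the Hoxd8 stretch held 6, against a median of 6 over 32851 windows of the same length. All 3 held 1 CCAAT match, and 33.8% of all windows held at least 1. Windows were found for 22 of the 39 Hox genes, 24 in all. The 12 windows of genes averaging at least 1 FPKM held a median of 13.5 CG pairs (range 3 to 35) and the 10 of genes under 0.1 FPKM a median of 12 (range 2 to 31), and 5 and 8 of them held the motif. A match describes the letters of a window and names no binding site.

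The pattern over the 4 clusters was uneven. Mean levels over the 9 libraries reached 1 FPKM for 10 of 11 Hoxa genes, 3 of 10 Hoxb genes, 7 of 9 Hoxc genes and 1 of 9 Hoxd genes. Some genes lay near that line. Without labelled-knockout replicate 2, Hoxb3 averaged 0.916 FPKM, and Hoxa2 and Hoxd9 averaged 1.07 and 1.01 FPKM. Hoxa10 at 55.0 FPKM and Hoxa9 at 10.6 FPKM were the only 2 members with a mean of at least 10 FPKM, and Hoxa10 was 5.19 times Hoxa9. Another 19 genes averaged between 1 and 10 FPKM. A further 6, Hoxa2, Hoxd9, Hoxc13, Hoxb7, Hoxb6 and Hoxc12, averaged between 0.1 and 1 FPKM, and 12 averaged under 0.1 FPKM. Hoxb9, Hoxb13 and Hoxd12 were listed at 0 in all 9 libraries, whereas 20 genes were above 0 in every library. FPKM is scaled to length, so these levels can be set side by side. In 16 members part of the exons overlaps other annotated genes, up to 62.8% in Hoxd3, and the sources used here do not say whether counting used strand. Hoxa10, Hoxc6, Hoxb4 and Hoxd8 have no such overlap.

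**Figure D1:**
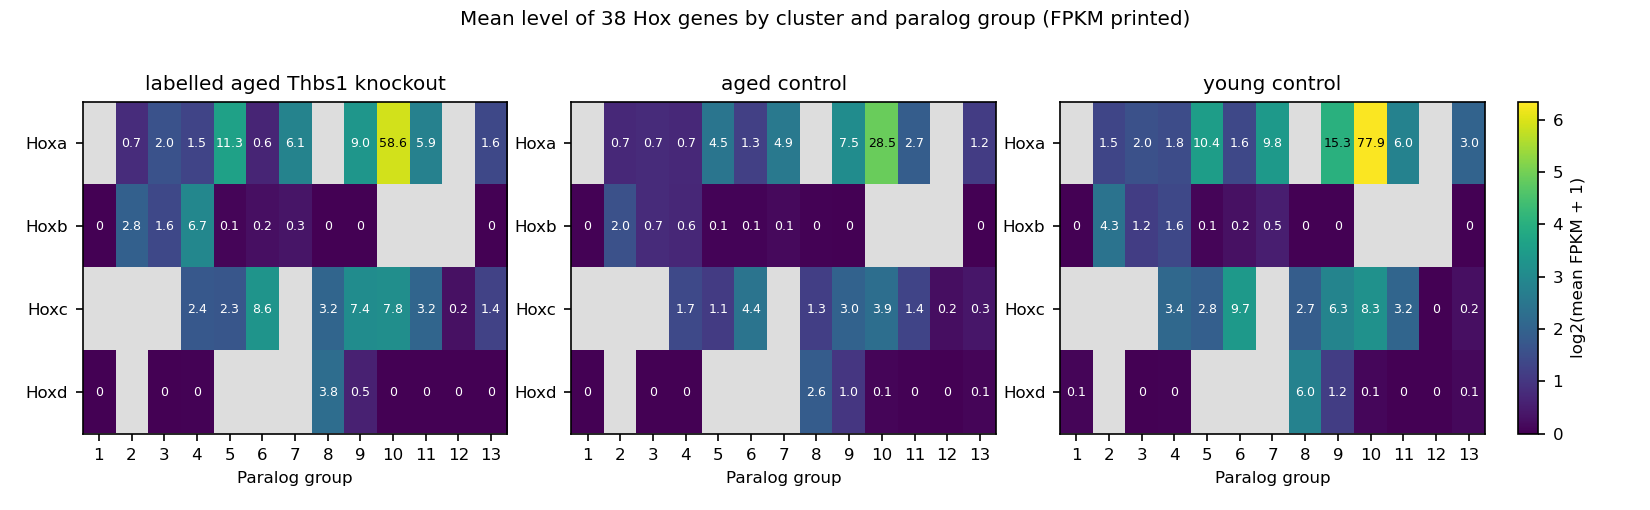
Mean FPKM of 38 Hox genes by cluster (rows) and paralog group (columns) in labelled aged Thbs1 knockout, aged control and young control libraries (n = 3 each). Colour is log2(mean FPKM + 1), grey marks positions with no gene or not shown, means under 0.05 are printed as 0, and Hoxa10 is the brightest cell in all 3 panels.

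Some boundaries were sharp along the chromosome, and that of the Hoxa cluster was not. The Hoxd cluster occupies 96.8 kb of chromosome 2 (74668310 to 74765142, GRCm38). There Hoxd8 averaged 4.14 FPKM and Hoxd9 0.900 FPKM, while Hoxd10, which starts 5803 bases from Hoxd9, averaged 0.0467 FPKM. On the other side of Hoxd8, the gene models of Hoxd3 and Hoxd4 begin at 74711927 and 74711929, the latter 3996 bases beyond the end of Hoxd8. The RefSeq window before Hoxd4 lies farther on and ends at 74721977. Hoxd3 averaged 0.00556 FPKM and Hoxd4 0.0189 FPKM. The 2 models overlap each other, and 62.8% and 52.3% of their exon length is shared with other genes. The sources used here do not say how shared reads were counted, so these 2 low values are less certain. The Hoxb cluster (173.9 kb, chromosome 11, 96194316 to 96368256) held its expressed genes in 1 run, in which Hoxb2, Hoxb3 and Hoxb4 averaged 3.05, 1.18 and 2.98 FPKM. Without labelled-knockout replicate 2, Hoxb3 averaged 0.916 FPKM and Hoxb4 1.12 FPKM. Near-silent genes flanked this run on both sides. Hoxb1, beyond Hoxb2 at the end of the cluster, averaged 0.00778 FPKM. On the other side Hoxb5 starts 14931 bases from Hoxb4 and averaged 0.0556 FPKM. In the Hoxa cluster on chromosome 6 the run from Hoxa3 to Hoxa13 lay above 1 FPKM on average, and Hoxa2 lay just below, at 0.969 FPKM. Without labelled-knockout replicate 2, Hoxa2 averaged 1.07 FPKM. In the Hoxc cluster (115.8 kb, chromosome 15, 102921103 to 103036852) the run from Hoxc4 to Hoxc11 lay above 1 FPKM, and Hoxc12 and Hoxc13 lay below, at 0.137 and 0.619 FPKM. The Hoxc13 mean rested on replicate 2 of the labelled-knockout libraries, with 3.82 FPKM there and at most 0.39 FPKM in any other library.

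Within a library the shares of the summed Hox level do not depend on how that library was scaled. Paralog groups 9 to 13 made up 63.9% ± 8.59 of the summed Hox FPKM in the labelled-knockout libraries, 63.6% ± 1.22 in aged controls and 66.5% ± 1.05 in young controls (SD, n = 3 each). The Hoxa cluster made up 65.7%, 68.6% and 71.6%, the Hoxc cluster 24.0%, 21.9% and 19.9%, the Hoxb cluster 7.35%, 4.61% and 4.39%, and the Hoxd cluster 3.06%, 4.91% and 4.09%, in the same order of groups. The aged and young controls had the same order of clusters, Hoxa, Hoxc, then Hoxb and Hoxd at similar shares. Hoxa10 alone took 39.6% ± 11.1, 36.4% ± 0.773 and 42.8% ± 2.58. Its share lay at 35.5% to 37.0% in the aged controls, below the 39.9% to 44.6% in the young controls, with no overlap. The labelled-knockout libraries ran across both, at 49.6%, 27.6% and 41.4%. The summed Hox level was 151 ± 23.2 FPKM in the labelled-knockout libraries, 78.3 ± 15 FPKM in aged controls and 183 ± 26.0 FPKM in young controls, and 152 and 127 FPKM in the 2 labelled-knockout libraries other than replicate 2. The aged controls, at 65.8 to 94.95 FPKM, did not overlap the labelled-knockout libraries, at 127 to 174 FPKM, or the young controls, at 165 to 213 FPKM.

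**Figure D2:**
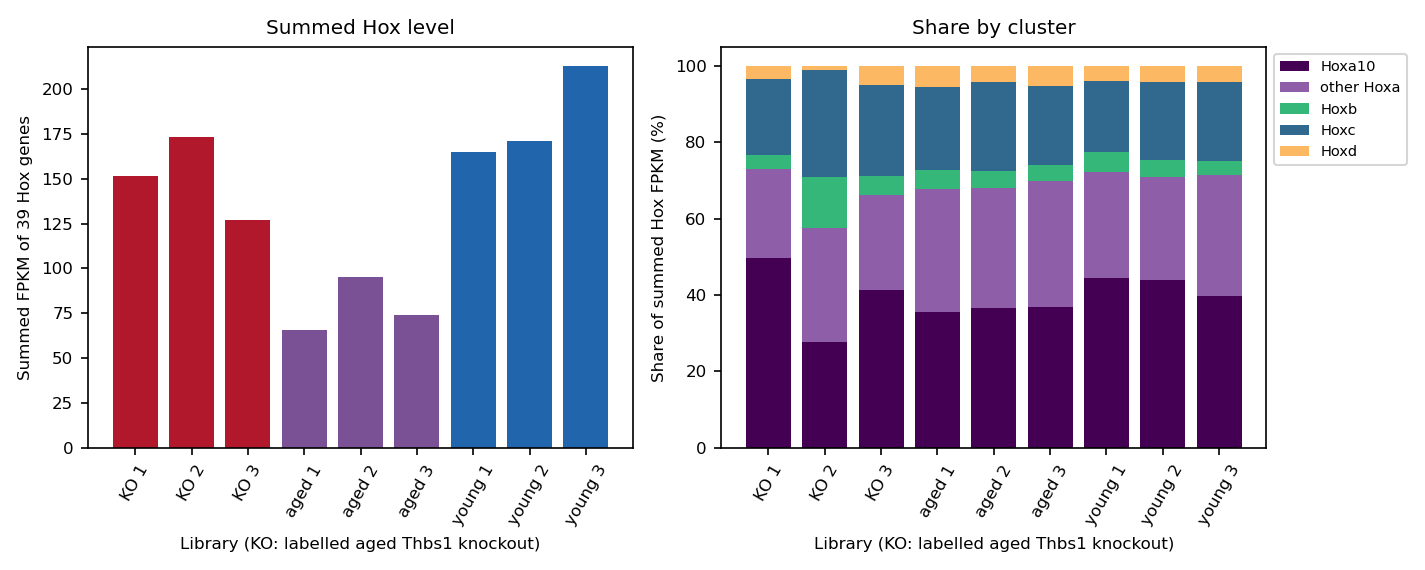
Left, summed FPKM of the 39 Hox genes in each of the 9 libraries, and right, the share of that sum held by Hoxa10, the other Hoxa genes and the Hoxb, Hoxc and Hoxd clusters (KO, labelled aged Thbs1 knockout). The aged controls have the 3 lowest sums, and KO 2 has the smallest Hoxa10 share (27.6%) and the largest Hoxb share (13.3%).

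Hoxa10, Hoxa9 and Hoxa5 were the most abundant genes of the Hoxa cluster. Hoxa10, which in mice helps to pattern the upper segment of the limb and is known to act upstream of bone-forming genes, was at 75.33, 47.95 and 52.68 FPKM in the labelled-knockout libraries. It was at 23.33, 34.76 and 27.44 FPKM in aged controls and at 73.50, 75.41 and 84.84 FPKM in young controls, on an estimated 1868 to 6444 reads. The aged controls were the 3 lowest libraries, and the other 2 groups overlapped. Hoxa9, known also for its role in blood stem cells and leukaemia, was at 12.74, 4.83 and 9.5 FPKM in the labelled-knockout libraries, at 6.57, 8.41 and 7.44 FPKM in aged controls and at 13.84, 14.49 and 17.55 FPKM in young controls. All young controls lay above all other libraries. Hoxa5, a gene of the neck and upper chest that is needed for lung development, was at 4.71, 22.54 and 6.66 FPKM in the labelled-knockout libraries, at 3.94, 5.90 and 3.76 FPKM in aged controls and at 7.80, 7.11 and 16.44 FPKM in young controls. Its highest value was in the labelled-knockout replicate 2, and the aged controls lay below the young controls without overlap.

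Of the Hoxc cluster, Hoxc6, a gene of the forelimb and thoracic level, was the most abundant. Its level was 7.90, 9.79 and 8.25 FPKM in the labelled-knockout libraries, 4.59, 5.27 and 3.35 FPKM in aged controls and 9.69, 9.66 and 9.74 FPKM in young controls. The aged controls were again the 3 lowest, and the young controls differed among themselves by under 0.1 FPKM. Hoxc10, known from the hindlimb and lumbar level, was at 4.53, 11.68 and 7.19 FPKM in the labelled-knockout libraries, at 3.59, 5.53 and 2.62 FPKM in aged controls and at 6.04, 7.17 and 11.72 FPKM in young controls. Hoxc9, a thoracic gene, was at 6.36, 10.99 and 4.86 FPKM in the labelled-knockout libraries, at 2.51, 3.66 and 2.73 FPKM in aged controls and at 4.43, 6.49 and 8.05 FPKM in young controls. For both genes the aged controls lay below the young controls without overlap, and for Hoxc9 also below the labelled-knockout libraries. The highest Hoxc9 value was in the labelled-knockout replicate 2.

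Among Hoxb genes, Hoxb2, a hindbrain gene, was at 3.29, 1.84 and 3.41 FPKM in the labelled-knockout libraries, at 1.60, 2.45 and 1.86 FPKM in aged controls and at 4.33, 4.68 and 4.03 FPKM in young controls, where it was highest. Hoxb4, known for promoting self-renewal of blood stem cells, was at 0.92, 17.86 and 1.34 FPKM in the labelled-knockout libraries, at 0.65, 0.72 and 0.56 FPKM in aged controls and at 1.95, 0.92 and 1.93 FPKM in young controls. The labelled-knockout replicate 2 was 9.16 times the next highest library, on an estimated 834 reads against 29.9 to 98.1 elsewhere. Hoxb3, another hindbrain gene, was at 0.69, 3.28 and 0.81 FPKM in the labelled-knockout libraries, at 0.71, 0.82 and 0.61 FPKM in aged controls and at 1.08, 1.31 and 1.30 FPKM in young controls. It too peaked in that library. In the Hoxd cluster, Hoxd8 was at 4.43, 1.80 and 5.10 FPKM in the labelled-knockout libraries, at 2.42, 2.94 and 2.50 FPKM in aged controls and at 5.91, 5.83 and 6.35 FPKM in young controls, the highest group. Hoxd9, a limb and trunk gene, was at 0.52, 0.00 and 0.98 FPKM in the labelled-knockout libraries, at 1.06, 0.90 and 1.01 FPKM in aged controls and at 0.62, 1.05 and 1.96 FPKM in young controls, and all groups overlapped. Hoxd13, a gene of the digits, was at 0.03, 0.00 and 0.00 FPKM in the labelled-knockout libraries, at 0.03, 0.03 and 0.15 FPKM in aged controls and at 0.04, 0.09 and 0.14 FPKM in young controls. With an estimated 0 to 7.8 reads a library, differences in Hoxd13 were not detectable at this depth.

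Replicate 2 of the labelled-knockout group stood apart in its Hox values, as it did over all genes. It listed 19 of the 39 Hox genes at 0, among them Hoxa6, Hoxc5 and Hoxd9, and these zeros included 4 of the 22 genes that averaged at least 1 FPKM in the other 8 libraries. Of 23 genes tested below it was the highest library for 10, Hoxa3, Hoxa4, Hoxa5, Hoxa11, Hoxb3, Hoxb4, Hoxc6, Hoxc8, Hoxc9 and Hoxc11, and the lowest for 7. The shares of all genes for which it was highest or lowest were not computed, so these counts show nothing particular to Hox genes. The whole library held 13503 genes above 0, against 16557 to 18382 elsewhere, and 49.0% of its FPKM lay in immunoglobulin genes. The part of these features in its Hox values was not tested. The median coefficient of variation of the tested Hox genes was 46.3% in the labelled-knockout libraries, 22.1% in aged controls and 21.5% in young controls. It was not computed for all genes.

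Age was examined by setting aged against young controls. Hoxa10 and Hoxc6 fell in aged controls, to 36.6% and 45.4% of the young control means. Hoxa10 averaged 28.5 ± 5.79 FPKM in aged controls and 77.9 ± 6.07 FPKM in young controls, and Hoxc6 averaged 4.40 ± 0.974 FPKM in aged controls and 9.70 ± 0.0404 FPKM in young controls (SD, n = 3 each). The log2 fold changes were -1.43 for Hoxa10 (SE 0.24, 95% interval -1.99 to -0.88, limma adjusted p = 0.0197) and -1.0 for Hoxc6 (SE 0.21, 95% interval -1.48 to -0.53, limma adjusted p = 0.0366), on the log2(FPKM + 1) scale. That scale understates changes of low genes. The test covered 11988 genes with at least 1 FPKM in at least 3 libraries, of which 23 were Hox genes. These 2 were the only Hox genes called, against 4.04% of all genes tested, or 1.47% in the lower direction. In bulk RNA, fewer cells of a type and less RNA per cell cannot be told apart.

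The other 21 tested Hox genes did not pass, and all 23 estimates lay below 0. Among all genes tested 74.5% did so, and the medians were -0.80 for the Hox genes and -0.28 for all genes. For 18 of the 23 the aged controls lay wholly below the young controls, as did 37.4% of all genes. Unadjusted p-values were under 0.05 in the lower direction for 11 of the 23 and for 15.7% of all genes. Next in order of p came Hoxb2 at -0.86 (limma adjusted p = 0.0831), Hoxa11, which patterns the middle segment of the limb, at -0.95 (0.0889), Hoxd8 at -0.96 (0.106), Hoxa7, a thoracic gene, at -0.89 (0.107) and Hoxa4, a neck gene, at -0.74 (0.112). Hoxa9 was at -0.94 (limma adjusted p = 0.122) and Hoxa5 at -0.98 (0.305). The estimates nearest 0 were those of Hoxa6 at -0.06 and Hoxd9 at -0.11, with 95% intervals of -1.03 to 0.90 and -0.80 to 0.59. A gene can pass the filter through the young controls alone, so these counts describe the tested genes and not all 39. Without any filter, 36 Hox genes had a value above 0 somewhere, and 31 estimates were below 0 and 5 above.

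**Figure D3:**
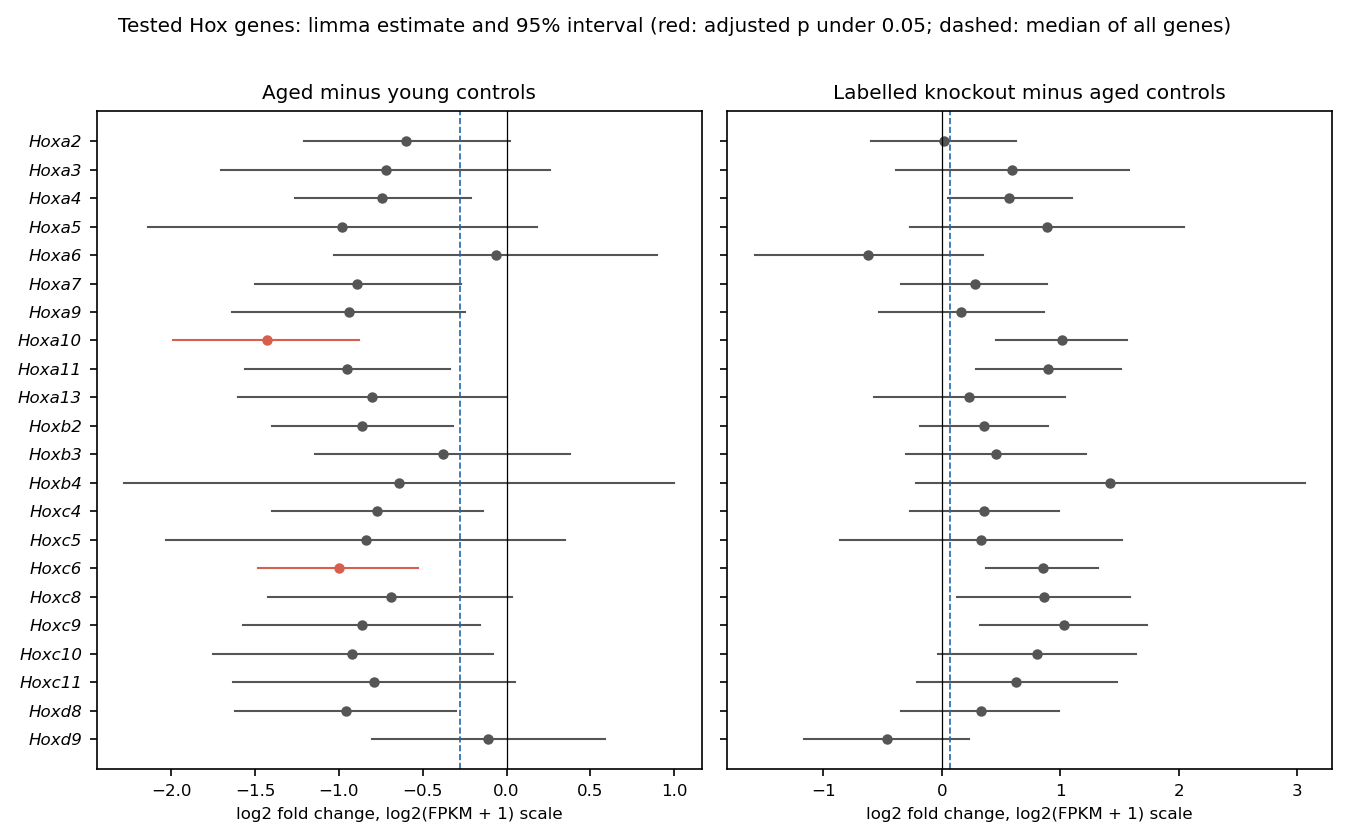
Log2 fold changes on the log2(FPKM + 1) scale with 95% intervals for 22 tested Hox genes, aged minus young controls (left) and labelled knockout minus aged controls (right). Red marks a limma adjusted p under 0.05 and the dashed line the median of all tested genes. Hoxa10 and Hoxc6 are red on the left and no gene is red on the right.

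These differences depend in size on the scaling. Immunoglobulin genes took 0.929%, 49.0% and 10.6% of the FPKM in the labelled-knockout libraries, 54.8%, 17.4% and 70.8% in aged controls and 0.0233%, 0.0499% and 0.871% in young controls. An FPKM value is relative to the total of its library. The median of all genes between aged and young controls, -0.28 as deposited, was 0.00 with median-ratio rescaling, and the Hox median was -0.57. With immunoglobulin genes left out the medians were -0.02 for all genes and -0.58 for Hox genes. Scaled on 19 stromal genes, they were 0.40 and -0.21. The Hox median minus that of all genes was between -0.63 and -0.52 as deposited and under these 3 scalings and quantile normalization. These 3 scalings divide each library by 1 factor, which shifts all genes nearly alike. That difference could therefore hardly change under them, and its steadiness is no support. Hoxa10 was called with median-ratio rescaling (-1.10, limma adjusted p = 0.025), with quantile normalization (-1.16, 0.0244) and without immunoglobulin genes (-1.12, 0.0264), but not when scaled on stromal genes (-0.61, limma adjusted p = 0.189). Hoxc6 was called with quantile normalization alone of these 4 (-0.88, limma adjusted p = 0.0433) and was at -0.27 (0.519) when scaled on stromal genes. Estimates below 0 numbered 23 of 23 as deposited and under quantile normalization, 21 with median-ratio rescaling or without immunoglobulin genes, and 19 when scaled on stromal genes. Over all genes the calls split into 308 higher and 176 lower as deposited, 359 and 68 with median-ratio rescaling, 382 and 65 without immunoglobulin genes, and 627 and 15 when scaled on stromal genes.

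**Figure D4:**
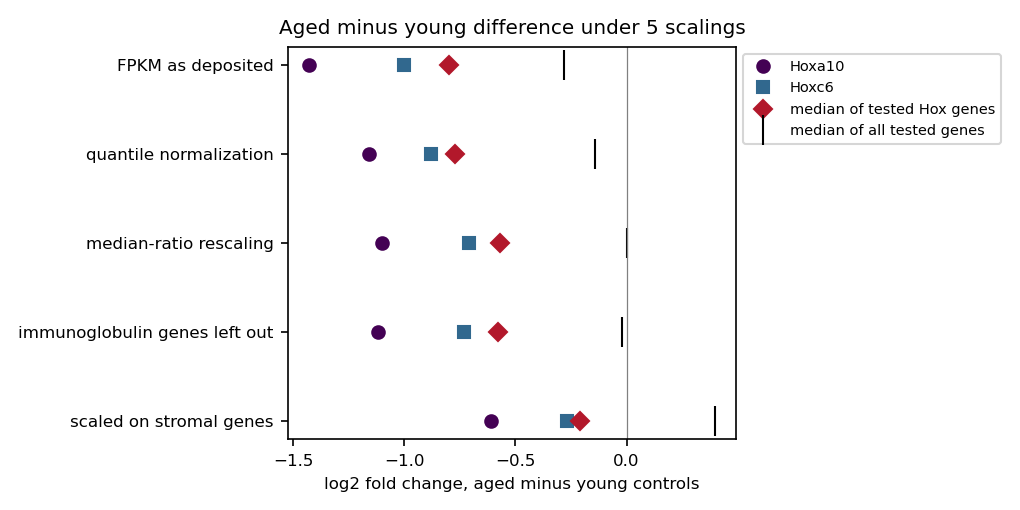
Aged minus young difference (log2 fold change) of Hoxa10, Hoxc6, the median tested Hox gene and the median of all tested genes under 5 scalings of the libraries. All 4 lie farthest to the right when scaled on stromal genes, and Hoxa10, Hoxc6 and the Hox median lie left of the median of all genes under each scaling. Except for quantile normalization, each rescaling shifts all genes nearly alike, so this order could hardly change.

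Ratios within a library are free of that scaling. Hoxa10 over Prrx1, a transcription factor of limb mesenchyme, was 5.23 ± 2.24 in the labelled-knockout libraries, 3.39 ± 0.244 in aged controls and 5.29 ± 0.505 in young controls (SD, n = 3 each). The aged controls spanned 3.13 to 3.62 and the young controls 4.84 to 5.84, without overlap, and the labelled-knockout libraries spanned 3.35 to 7.71. Hoxa10 over Hoxa9 was 7.13 ± 2.43 in the labelled-knockout libraries, 3.79 ± 0.304 in aged controls and 5.12 ± 0.250 in young controls. Again the ranges of aged controls, 3.55 to 4.13, and young controls, 4.83 to 5.31, were apart. Hoxc6 over Prrx1 was 0.738 ± 0.0639, 0.537 ± 0.165 and 0.664 ± 0.107 in the same order of groups, and its aged control range of 0.382 to 0.712 overlapped the young control range of 0.556 to 0.770. Hoxa10 over Twist1, another factor of limb mesenchyme, went the other way, at 2.11 ± 1.15 in the labelled-knockout libraries, 3.59 ± 0.562 in aged controls and 2.66 ± 0.250 in young controls. Its aged control range of 2.95 to 4.01 lay above the young control range of 2.40 to 2.90. A ratio shows unequal change and not which of the 2 genes changed, and the direction for Hoxa10 turned with the gene it was set against.

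The next question was whether, at the same age, the Hox pattern differed with the knockout label. No Hox gene passed, while 3.48% of all genes did. Hoxa10 and Hoxc6, the genes called with age, had the smallest p-values among Hox genes. Hoxa10 averaged 58.6 ± 14.6 FPKM in the labelled-knockout libraries and 28.5 ± 5.79 FPKM in aged controls, a log2 fold change of 1.01 (SE 0.24, 95% interval 0.46 to 1.56, limma adjusted p = 0.0599). Hoxc6 averaged 8.65 ± 1.01 FPKM in the labelled-knockout libraries and 4.40 ± 0.974 FPKM in aged controls, a log2 fold change of 0.85 (SE 0.21, 95% interval 0.37 to 1.32, limma adjusted p = 0.0649). Both genes were higher in 3 of 3 labelled-knockout libraries than in any aged control. The aged controls enter this and the previous comparison, so the opposite signs of the 2 comparisons are not independent.

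Of the 23 tested Hox genes, 20 estimates were above 0, against 55.7% of all genes, with medians of 0.46 for Hox genes and 0.07 for all genes. Scaled on stromal genes, 15 were above 0, and the medians there were 0.25 for Hox genes and -0.29 for all genes. For 7 genes, Hoxa4, Hoxa10, Hoxa11, Hoxb4, Hoxc6, Hoxc8 and Hoxc9, the labelled-knockout libraries lay wholly above the aged controls, as did 16.6% of all genes. Unadjusted p-values were under 0.05 in the higher direction for 6 of the 23 and for 12.5% of all genes. Hoxc9 was at 1.03 (limma adjusted p = 0.114), Hoxa11 at 0.90 (0.112) and Hoxc8, a thoracic gene, at 0.86 (0.185). Hoxb4 had the largest estimate, 1.42 (SE 0.73, limma adjusted p = 0.316), and without the labelled-knockout replicate 2 it was at 0.37. Hoxa6 at -0.62 and Hoxd9 at -0.46 were among the estimates below 0, and both were listed at 0 in that replicate. Without it, 4 of 23 Hox genes were called, beside 1895 of all 11823 genes tested. The 4 were Hoxa10 at 1.14 (limma adjusted p = 0.0159), Hoxc5 at 1.03 (0.0316), Hoxc6 at 0.76 (0.0301) and Hoxd8 at 0.67 (0.0288). In aged against young controls the same omission raised the count of called Hox genes to 13 of 23, all lower. Over all genes it gave 2729 calls of 11823 there, 2118 of them lower. Over all genes the calls in the labelled-knockout comparison split into 182 higher and 235 lower as deposited, 178 and 352 with median-ratio rescaling, 135 and 405 without immunoglobulin genes, and 68 and 417 when scaled on stromal genes.

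Set against young controls, the labelled-knockout libraries differed in none of the 23 tested Hox genes past the threshold, and only 0.025% of all genes passed. Hoxa10 was at -0.43 (95% interval -0.98 to 0.12, limma adjusted p = 0.616) and Hoxc6 at -0.15 (95% interval -0.63 to 0.32, limma adjusted p = 0.804), intervals that still hold sizeable differences. Hoxa9 had the smallest p, with means of 9.02 ± 3.98 FPKM in the labelled-knockout libraries and 15.3 ± 1.98 FPKM in young controls (log2 fold change -0.78, limma adjusted p = 0.544), and it was the 1 Hox gene with an unadjusted p under 0.05, against 6.52% of all genes in the lower direction. Hoxa7, Hoxa9, Hoxb2 and Hoxd8 lay wholly below the young controls, as did 13.4% of all genes. Of the 23 estimates 19 were below 0, against 65.8% of all genes, and the medians were -0.41 for Hox genes and -0.16 for all genes. Without the labelled-knockout replicate 2 the count of called Hox genes was also 0.

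The filter left 16 Hox genes outside the test, so their low levels follow from that rule. Their highest mean over the 9 libraries was 0.619 FPKM, in Hoxc13, and their highest single value was 3.82 FPKM in the same gene. The labelled-knockout mean of Hoxc13 was 1.37 FPKM. Hoxb6 and Hoxb7, trunk genes, averaged 0.153 and 0.291 FPKM. Group means of at least 1 FPKM were reached by 21 Hox genes in the labelled-knockout libraries, 17 in aged controls and 23 in young controls. In the labelled-knockout group Hoxa3, Hoxb3 and Hoxc13 did so only through replicate 2. By library the counts were 18, 19 and 18 in the labelled-knockout group, 12, 16 and 18 in aged controls and 22 in each young control. Shares of all genes reaching 1 FPKM were not computed by group.

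Non-coding transcripts of the clusters were read beside their neighbours. Of 8 listed, 4 were tested and limma called none in any comparison, with unadjusted p-values under 0.05 for 3, 2 and 0 of them in aged against young controls, labelled knockout against aged controls and labelled knockout against young controls. Such counts, here and for the lists below, cover both directions. For all genes only 1 direction was counted, 15.7% lower, 12.5% higher and 6.52% lower in these comparisons. The list counts therefore cannot be read as an excess over all genes. Hotairm1, a transcript of the Hoxa cluster, was at 4.11, 9.49 and 6.17 FPKM in the labelled-knockout libraries, at 2.71, 2.75 and 1.73 FPKM in aged controls and at 5.88, 6.59 and 11.51 FPKM in young controls. The aged controls were the 3 lowest, and aged against young controls gave -1.37 (limma adjusted p = 0.0535). Hoxa11os, antisense to Hoxa11 and overlapping 35% of its exon length, averaged 1.72 ± 0.108, 0.980 ± 0.384 and 2.13 ± 0.2 FPKM in the same order of groups. Hoxaas2 and Hoxaas3 averaged 2.76 and 2.24 FPKM over the 9 libraries, and Hoxaas2 peaked at 9.92 FPKM in the labelled-knockout replicate 2. If reads were counted without strand, those of a Hox gene and its antisense partner cannot be told apart where they overlap.

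Hox proteins bind DNA together with TALE homeodomain cofactors of the Pbx, Meis and Pknox families. Of 9 such genes 8 were tested and limma called none in any comparison, with unadjusted p-values under 0.05 for 1, 2 and 0 of them and medians of -0.36 for aged against young controls, 0.28 for labelled knockout against aged controls and -0.13 for labelled knockout against young controls. The most abundant was Meis3, at 15.7 ± 2.85 FPKM in the labelled-knockout libraries, 9.03 ± 1.68 FPKM in aged controls and 16.7 ± 1.40 FPKM in young controls (aged against young log2 fold change -0.83, limma adjusted p = 0.0676). Pbx2 averaged 8.11 FPKM and Pknox2 4.50 FPKM over the 9 libraries. Genes next to the clusters gave 0 limma calls among 13 tested of 16, with unadjusted p-values under 0.05 for 4, 3 and 0 and medians of -0.44, 0.32 and -0.19 in the same 3 comparisons, and the highest were Atp5g3, Hnrnpa1 and Nfe2l1, at 138.6, 39.2 and 25.5 FPKM. Of 12 relatives such as the ParaHox genes only Meox1 and Meox2, which act in the somites, were tested, and limma called neither, with unadjusted p-values under 0.05 for 1, 2 and 1. Meox1 averaged 12.6 ± 3.74, 5.64 ± 1.5 and 10.6 ± 1.84 FPKM in the labelled-knockout, aged and young libraries.

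Regulators of Hox chromatin did not pass either, in the same 3 comparisons. Polycomb genes, which keep silent Hox genes off, gave 0 limma calls among 20 tested of 22, with unadjusted p-values under 0.05 for 1, 1 and 0 and medians of -0.27, -0.08 and -0.19. Trithorax genes, which keep active ones on, gave 0 limma calls among 12 of 12, with unadjusted p-values under 0.05 for 0, 2 and 1 and medians of -0.16, -0.06 and -0.24. The highest of each were Rbbp7, Rbbp4 and Phf1, at 96.9, 29.0 and 21.5 FPKM, and Dpy30, Psip1 and Men1, at 60.3, 11.5 and 11.3 FPKM. Retinoic acid, a signal that induces Hox genes in the embryo, was represented by 17 pathway genes, of which 12 were tested and limma called none, with unadjusted p-values under 0.05 for 1, 2 and 4 and medians of -0.31, 0.13 and -0.06. Aldh1a2, which makes retinoic acid, averaged 285.8 FPKM and Dhrs3 45.6 FPKM.

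A few other limb and skeletal patterning factors passed the test. Of 37, 23 were tested, and aged against young controls 3 of the 23 fell and none rose, against 1.47% of all genes called lower, with a median of -0.60 against -0.28 for all genes. They were Twist1 at -1.76 (limma adjusted p = 0.0219), Shox2 at -1.34 (0.0293) and Dlx5 at -1.27 (0.0492), factors of limb mesenchyme, limb bone growth and bone formation. Against aged controls, Twist1 alone of the 23 rose in the labelled-knockout libraries (1.83, limma adjusted p = 0.0239), where 3.48% of all genes were called in either direction and the list median was 0.58. Pitx1, which specifies the hindlimb, was at 8.97, 9.37 and 6.74 FPKM in the labelled-knockout libraries, at 4.29, 6.43 and 5.13 FPKM in aged controls and at 8.22, 9.5 and 7.71 FPKM in young controls. Tbx4 and Tbx5, known from hindlimb and forelimb buds, reached at most 0.53 and 0.38 FPKM in any library. These last 3 were chosen after their values were seen.

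Markers of other cell types moved with the groups in which Hoxa10 and Hoxc6 were lower. For scale, 308 of all 11988 tested genes were called higher and 176 lower with age, 4.04% together. Labelled-knockout libraries had 182 genes called higher and 235 lower than aged controls, 3.48% together. Pan-leukocyte markers rose in aged against young controls (8 of 10 tested, of 11), among them Cd37 at 3.70 (limma adjusted p = 0.00365), and fell in the labelled-knockout libraries against aged controls (7 of 10). Their summed level was 64.0 to 660 FPKM in the labelled-knockout libraries, 604 to 1379 FPKM in aged controls and 57.2 to 99.9 FPKM in young controls. B lineage markers rose with age in 4 of 7 tested (of 11), with sums of 42.2 to 1111, 458 to 1301 and 49.6 to 111 FPKM. Osteoblast markers fell with age in 7 of 13 and rose in 5 of 13 in the labelled-knockout libraries against aged controls, led by Bglap2, an osteocalcin gene, at -4.66 (limma adjusted p = 0.00781) and 4.27 (0.0115). Chondrocyte markers rose in 7 of 10 tested in that second comparison. With age limma called 0 of the 10, all 10 estimates lay below 0 with a median of -2.39, and 6 had an unadjusted p under 0.05. Among all genes 74.5% of estimates lay below 0 with age, and the median was -0.28. An unadjusted limma p under 0.05 in the lower direction was found for 15.7% of all genes. Pericyte and smooth muscle markers gave 1 fall with age, Mylk, and 3 rises in the second comparison, Acta2, Tagln and Mcam, of 10 tested. Of 18 tested stromal markers, Ly6a rose and Adipoq and Twist1 fell with age. Of the 18 estimates 16 lay below 0, and their median of -0.79 was close to the Hox median of -0.80. An unadjusted limma p under 0.05 in either direction was found for 13, a share not computed for all genes. The part of these markers in the Hox differences was not tested. Blood stem and progenitor cells also express Hoxa9, Hoxa10 and Hoxb4. Their markers gave 3 rises with age (Gata2, Cd48 and Ly6a) and 2 falls in the second comparison (Gata2 and Gfi1b), of 10 tested of 15, and their levels were mixed. Runx1, Kit and Procr averaged 38.8, 7.23 and 5.52 FPKM over the 9 libraries and Cd34 reached 7.73 FPKM in 1 labelled-knockout library, while Flt3, Mecom and Slamf1 reached at most 0.17, 0.16 and 0.25 FPKM in any library. These 7 were chosen after their values were seen. Of the remaining lists, Mpo rose with age and fell in the second comparison among 9 tested myeloid markers, Pecam1 did the same among 2 endothelial markers, Atf3 fell with age and rose in the second comparison among 14 immediate early and stress genes, and limma called none of 8 erythroid markers, with an unadjusted p under 0.05 for 1 in each of these comparisons. No member of any list was called between labelled-knockout libraries and young controls.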

How the data were processed

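Per the labels' protocols, 2 ng of total RNA entered each SMART-Seq v4 library. The values are FPKM that the authors deposited in 1 table for 30579 genes. The sources used here do not name the tool that computed them. Builds GRCm38 and mm10 and the tools STAR, edgeR and FastQC 0.11.5 come from the submitters' processing notes, which give no roles. Columns were matched to samples by title and grouped by title. Gene models from GENCODE M21 (GRCm38) were found for 30192 genes (98.7%).

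Read depth was estimated from the step between low FPKM values in short genes. At that step 92.9% to 99.3% of values were whole reads within 0.1, and 87.4% of 87 low Hox values within 0.2. Genes reaching 1 FPKM in 3 or more libraries were kept (11988). On log2(FPKM + 1), limma 3.58.1 (R 4.3.3) fitted the 3 group means over all 9 libraries at once, with variances following the mean level and 6 residual degrees of freedom. Benjamini-Hochberg adjustment ran over all kept genes, and an adjusted p under 0.05 was a call. FPKM values do not suit a count test, and none was used. The fit was tested on simulated data, with 50 genes changed at each size and each comparison simulated once. The changed genes all had a mean log2(FPKM + 1) of at least 2, a level that many tested Hox genes did not reach. Rises of 1 in log2 were recovered in 14% to 18% of cases over the 3 comparisons, and rises of 2 in 66% to 70%. A missing call therefore says little about changes near 1. False calls made up 1.6% of the calls in aged against young controls. They made up 8.82% in labelled knockout against aged controls and 8.96% against young controls, above the 0.05 threshold.

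The Hox genes given in every library are those called in a comparison and the 3 highest of each cluster. From each list the called members, up to 4, or the 3 highest by mean are named, not every one of them here. The members and lists were chosen with earlier results of these data known. Shares were computed within a library. Upstream sequences are RefSeq's (GRCm38.p6), matched by symbol. Alternatives changed the pseudocount (0.1), the filter (none, or 5 FPKM), the scaling as named in the text, the trend, the weights of libraries, the groups fitted, the replicate block, or left out each library. Other computations ran in Python 3.11.15 with pandas 2.3.3, and figures were drawn with matplotlib 3.10.9. A few genes are not reported here by name.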

Additional observations from a re-analysis of the deposited data

How the results depend on the processing

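The count of Hox genes called in aged against young controls, 2 as reported, was 1 without a filter, 1 with median-ratio rescaling and 1 with immunoglobulin genes left out. It was 0 when scaled on stromal genes, 12 of 22 with only the 2 groups compared and 21 of 23 with array weights, whose fit stopped before full convergence. Over all genes the calls were 2155 of 11525 with only the 2 groups compared and 7419 of 11988 with array weights. With the replicate number as a block the Hox count was 0, and Hoxa10 stayed at -1.43 (limma adjusted p = 0.0706) and Hoxc6 at -1.0 (0.0928). Correlations between groups, of deviations from the group means, ran from -0.288 to 0.302 for same-numbered libraries and from -0.409 to 0.369 for the others. With 3 libraries a group, that check cannot tell whether the numbers pair the libraries. Leaving out 1 library gave 0 to 13 Hox calls. The count was 13 without labelled-knockout replicate 2, 1 without labelled-knockout replicate 3, 1 without aged control 2 or 3, and 0 without aged control 1 or any 1 young control. Over all genes the 13 stood beside 2729 calls of 11823, and the omissions with 0 Hox calls beside 4 to 36. Hoxa10 stayed below 0 in all 23 alternatives (-1.60 to -0.61, limma adjusted p = 4.89e-06 to 0.189) and was called in 16, and its call was lost in 4 of 9 omissions. Hoxc6 stayed below 0 as well (-1.15 to -0.27, limma adjusted p = 1.62e-05 to 0.519) and was called in 10, and its call was lost in 7 of 9 omissions.

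For the labelled-knockout libraries against aged controls the count, 0 as reported, was 1 with median-ratio rescaling (Hoxa10), 14 with array weights and 0 to 4 with 1 library left out, the 4 without the labelled-knockout replicate 2. Over all genes the calls were 530 of 11962 with median-ratio rescaling, 6347 of 11988 with array weights and 1895 of 11823 without that replicate. Against young controls the Hox count was 4 with array weights, beside 1414 of 11988 genes, and 0 otherwise. Of 2 alternatives chosen after seeing the data, both without the labelled-knockout replicate 2, median-ratio rescaling gave 5 and 2 Hox calls in the first 2 comparisons, and scaling on stromal genes gave 0 and 0. Over all genes the calls were 1276 and 1342 of 11773 with median-ratio rescaling and 1956 and 1025 of 11867 with stromal scaling. Labelled-knockout against young controls, Hoxa10 turned to 0.14 with stromal scaling without replicate 2, and Hoxc6 to 0.16 there, 0.04 with median-ratio rescaling and 0.20 with stromal scaling. Thbs1 in labelled knockout against aged controls turned to 0.09 without labelled-knockout replicate 1, the upper end of -0.33 to 0.09 over the omissions. It was -0.58 (limma adjusted p = 0.31) when scaled on stromal genes, and without labelled-knockout replicate 2 it was -0.61 (0.0962) with median-ratio rescaling and -0.72 (0.154) with stromal scaling. The causes were not tested.

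Over all genes the calls numbered 484 in aged against young controls (4 to 7419 over the alternatives, 138 without a filter, 120 with the replicate block), 417 in labelled knockout against aged controls (13 to 6347) and 3 in labelled knockout against young controls (2 to 1414). The share of paralog groups 9 to 13 was 68.2% in aged controls and 71.8% in young controls with overlapped genes left out, and 69.0% and 71.5% by estimated reads. Leaving out 1 library gave 59.8% to 68.3% in the labelled-knockout libraries, 62.9% to 64.1% in aged controls and 65.9% to 66.8% in young controls. Depth limits the Hox genes under 0.1 FPKM, where 3 reads on 2 kb came to 0.0543 to 0.0846 FPKM.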
